A study of Drosophila melanogaster with 3 samples.

Results

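Intronic peaks away from promoters are those ChIP-seq peaks of Trem whose summit, the position of highest signal, lay more than 500 bp from every transcription start site (TSS) of a protein-coding gene, inside a protein-coding gene and in no annotated exon of any gene. They numbered 1579 of the 7477 peaks in the reproducible list, a share of 21.1%, beside 4694 summits within 500 bp of a protein-coding TSS, called promoter summits here, and 961 summits outside genes and away from promoters, called intergenic. The embryos came from a transgenic line carrying Trem with enhanced green fluorescent protein (eGFP) at its C terminus, were 0 to 14 hours old and of both sexes, and were used whole, so a peak may come from any embryonic tissue. One label names an anti-GFP antibody for the precipitation and another gives trem in the antibody field. There were 3 biological replicates with 1 technical replicate each, all of the same group, so no genotype, stage or treatment was compared. The labels name a control, which was not analysed here, and library depth is unknown, since reads were not analysed. Whether the peaks reflect Trem itself or signal that any protein gives at open chromatin was not tested.

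Trem is the product of trade embargo, a gene known from flies whose mutants fail to form meiotic DNA double-strand breaks, and belongs to the zinc finger proteins with an N-terminal zinc-finger-associated domain (ZAD). Many proteins of this family bind DNA at promoters and insulators. Introns of fly developmental genes, above all long first introns, are known to hold enhancers and alternative promoters, and they also hold nested genes and transposon remnants.

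Intronic summits, and intergenic ones likewise, often had a short word on the flanks of an AT-rich centre, and its examples are shown before the counts. The word CACTG, or its reverse complement CAGTG, stood 40 to 120 bp to either side of many summits. The 4 sequences below belong to the strongest members with CACTG on the left and CAGTG on the right of the summit that could be shown, each 241 bp centred on the summit, from the plus strand of the RefSeq genome of the dm6 assembly, with those words within 120 bp of the summit in capitals. Gug encodes the corepressor Atrophin, kirre a cell adhesion protein of muscle founder cells, and smash a cell junction protein.
CG11050, chr2L:6612583-6612823: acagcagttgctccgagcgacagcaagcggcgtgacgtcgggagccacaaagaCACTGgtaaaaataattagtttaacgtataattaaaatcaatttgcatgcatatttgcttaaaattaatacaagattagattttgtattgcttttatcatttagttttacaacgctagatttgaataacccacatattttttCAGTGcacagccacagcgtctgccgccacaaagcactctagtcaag
Gug, chr3L:8458214-8458454: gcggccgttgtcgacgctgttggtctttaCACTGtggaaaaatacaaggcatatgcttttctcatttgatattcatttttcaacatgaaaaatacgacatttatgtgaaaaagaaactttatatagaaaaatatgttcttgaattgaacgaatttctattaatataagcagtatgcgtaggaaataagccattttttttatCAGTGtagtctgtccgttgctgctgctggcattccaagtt
kirre, chrX:3097082-3097322: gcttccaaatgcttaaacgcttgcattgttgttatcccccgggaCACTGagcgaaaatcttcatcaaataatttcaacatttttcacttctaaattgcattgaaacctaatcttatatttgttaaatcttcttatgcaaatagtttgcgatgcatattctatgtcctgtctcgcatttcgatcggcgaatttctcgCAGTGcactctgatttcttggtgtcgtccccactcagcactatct
smash, chr3R:4663171-4663411: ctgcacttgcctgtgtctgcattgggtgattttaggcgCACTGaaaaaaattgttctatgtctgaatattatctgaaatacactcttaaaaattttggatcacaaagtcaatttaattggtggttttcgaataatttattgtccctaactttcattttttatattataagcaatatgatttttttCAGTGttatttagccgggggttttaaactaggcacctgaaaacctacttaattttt

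A different word, GTTGGCAG, stood near the summits of several of the strongest members, shown next with 50 bp to each side of the summit with the word, on either strand, in capitals. The hosts are Ant2 and sesB, overlapping genes for mitochondrial ADP/ATP carriers, chic, which encodes the actin-binding protein profilin, and tws, which encodes a regulatory subunit of protein phosphatase 2A.
Ant2 and sesB, chrX:10786244-10786344: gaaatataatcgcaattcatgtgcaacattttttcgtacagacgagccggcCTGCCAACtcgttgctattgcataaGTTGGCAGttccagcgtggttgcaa
chic, chr2L:5977563-5977663: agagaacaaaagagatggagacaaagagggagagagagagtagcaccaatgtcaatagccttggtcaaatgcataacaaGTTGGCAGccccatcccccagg
tws, chr3R:10133053-10133153: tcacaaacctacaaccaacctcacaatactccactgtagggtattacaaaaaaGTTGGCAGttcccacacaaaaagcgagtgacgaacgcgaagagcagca

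Few members held DRE or the M1BP motif, longer words found at many Trem promoter summits, and 3 that did are shown for contrast in the same layout. DRE is the DNA replication-related element. The capitals mark the M1BP motif in upSET, a chromatin regulator, and DRE in Tudor-SN, a nuclease, and in Snap25, a synaptic vesicle fusion protein. The Snap25 member lay 93345 bp from the nearest TSS, the greatest distance of all members.
upSET, chr3L:14002950-14003050: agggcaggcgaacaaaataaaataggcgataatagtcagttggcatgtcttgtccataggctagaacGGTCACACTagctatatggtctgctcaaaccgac
Tudor-SN, chr3L:262866-262966: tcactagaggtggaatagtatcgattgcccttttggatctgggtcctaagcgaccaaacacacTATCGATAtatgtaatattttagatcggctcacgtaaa
Snap25, chr3L:24231471-24231571: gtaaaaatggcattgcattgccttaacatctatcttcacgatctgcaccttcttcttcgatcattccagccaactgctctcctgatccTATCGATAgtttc

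The core of the site of the insulator protein CTCF was more frequent among the members than in other intron, as it was at promoter and intergenic summits. It is in capitals in these 61 bp windows from the members in Eip75B, an ecdysone-induced nuclear receptor, nrv2, a subunit of the sodium pump, and CG43980.
Eip75B, chr3L:17988302-17988362: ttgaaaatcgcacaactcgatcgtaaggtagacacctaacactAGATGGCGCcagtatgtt
nrv2, chr2L:6797567-6797627: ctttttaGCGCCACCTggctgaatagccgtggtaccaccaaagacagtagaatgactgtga
CG43980, chr3L:21652953-21653013: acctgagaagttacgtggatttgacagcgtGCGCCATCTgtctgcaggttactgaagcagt

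Applied to the 7477 strongest peaks of each replicate list, the same rule found 1709 intronic summits in replicate 1, 1398 in replicate 2 and 1484 in replicate 3. Their mean share was 20.5% ± 2.15 (SD, n = 3), and replicate 1 held the most. Most members were weak. The signal value, the authors' own measure of enrichment per peak on the scale of its list, had a median of 234.9 over the members, with quartiles of 178.4 and 353.0 and a range of 144.4 to 9109. Of the members 11.8% had a signal over 500, against 19.8% of promoter summits and 10.2% of intergenic summits. Since signal scales differ between lists, strength was compared as a percentile within each list, where 0 is the weakest peak and 100 the strongest. The median percentile of intronic summits was 43.7 in replicate 1, 37.9 in replicate 2 and 37.9 in replicate 3, lower than the 55.9, 56.6 and 56.8 of promoter summits in the same libraries. The difference between intronic and promoter medians was -16.6 ± 3.77 percentile points (SD, n = 3) and lay below 0 in every replicate (exact two-sided sign-flip permutation test, p = 0.25, the smallest p that 3 replicates allow, so this design cannot reach 0.05). Within the stronger 50% of each list the mean difference was smaller, at -6.87 points. Against intergenic summits the difference was 2.92 ± 3.47 points, with replicate values of 6.82, 1.78 and 0.167, and its mean was smaller than its SD (exact permutation p = 0.25). Without replicate 1 that mean was 0.973. Intronic summits made up 12.9% ± 4.03 of the strongest 10% of a replicate list and 27.7% ± 0.268 of the weakest 10% (SD, n = 3). In the strongest 10% replicate 1 stood apart with 17.4%, against 9.64% and 11.6%.

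**Figure D1:**
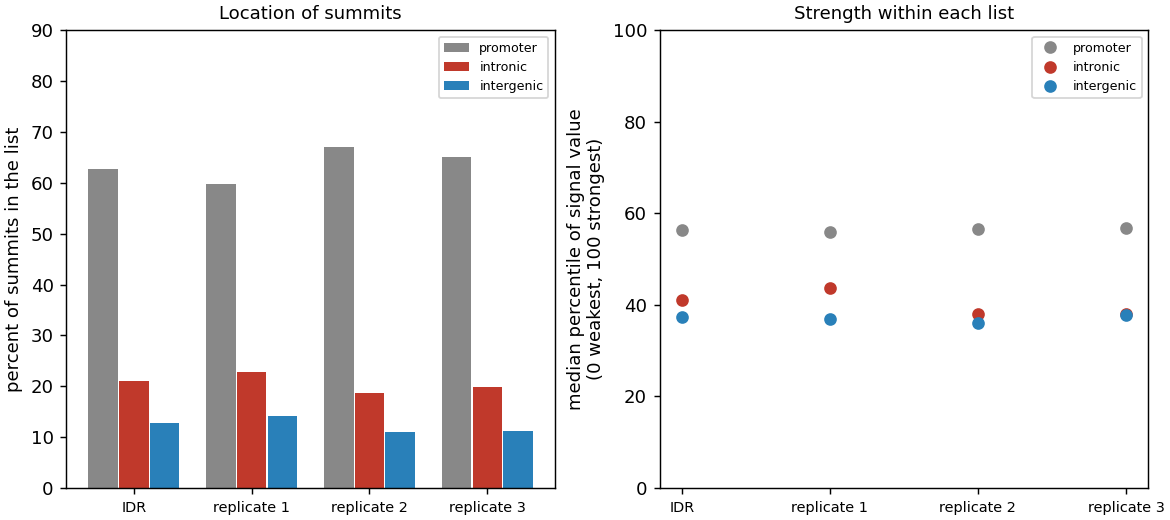
Left, bars from 0 give the percent of the 7477 summits in each list that were promoter, intronic or intergenic; right, points give the median percentile of signal value of each class within its list. In every list the intronic points lie below the promoter points, and in replicate 3 they meet the intergenic point at about 37.9 and 37.7.

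A summit within 100 bp was found in all 3 whole replicate lists for 1355 members, or 85.8%, close to the 86.8% of promoter summits and the 83.5% of intergenic summits. The reproducible list was made from these replicate lists, so the share describes them and does not test them. It depended on strength. With the list split into 4 equal classes by signal, it was 96.9% of the 294 members in the strongest class and 74.6% of the 528 in the weakest. When each replicate list was reduced to its 7477 strongest peaks, 49.6% of the members were still found in all 3. The share was 66.8% for promoter summits and 47.5% for intergenic summits. Replicate 1 then held 87.7% of the members, replicate 2 held 68.1% and replicate 3 held 72.5%. For intergenic summits these shares were 88.2%, 67.1% and 67.5%, and for promoter summits 86.6%, 85.1% and 84.2%. Just inside the distance limit lay members in Cbs, a gene of cysteine synthesis, at 504 bp with a signal of 170.4, in MICU3, a gene of the mitochondrial calcium uptake family, at 505 bp with 154.2, and in lola, a gene for many zinc finger transcription factors, at 509 bp with 262.5. Just outside the limit were summits in prage at 500 bp with 611.3, in Ogdh and Cpr73D at 498 bp with 176.1, and in B4 at 498 bp with 161.1. The median signal was 246.7 for the 61 members at 501 to 600 bp and 242.8 for the 64 otherwise eligible summits at 401 to 500 bp.

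Intronic summits crowded toward TSSs of protein-coding genes, of the host or of any other gene, beyond what the limit of 500 bp required. Eligible intron, meaning every position that could have held a member, came to 49.5 Mb, and the members stood at 31.9 per Mb (replicates 30.9 ± 3.25, SD, n = 3). Their median distance to the nearest protein-coding TSS was 3088 bp (replicates 2920 ± 167), against 6414 bp over eligible intron. Density fell with each step away from a TSS, from 70.0 per Mb at 501 to 1000 bp to 52.5, 38.7, 30.2 and 20.8 per Mb in the next 4 bins and 8.38 per Mb beyond 20000 bp. In the replicate lists the first of these densities was 75.1 ± 4.28 and the last 7.37 ± 2.01 per Mb (SD, n = 3). Of the members 1059, or 67.1%, lay in the first intron of at least 1 transcript (replicates 68.0% ± 1.31), whereas 43.0% of eligible intron was first intron. At equal distance, too, first introns held more members per Mb than later introns, 83.4 against 36.4 at 501 to 1000 bp and 27.4 against 17.4 at 10001 to 20000 bp. The replicate values for the nearest bin were 90.5 ± 4.03 in first introns and 36.4 ± 5.69 in later introns (SD, n = 3), a gap larger than the spread between replicates. TSSs of non-coding genes lay within 500 bp of 35 members, or 2.22%, against 0.952% of eligible intron.

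**Figure D2:**
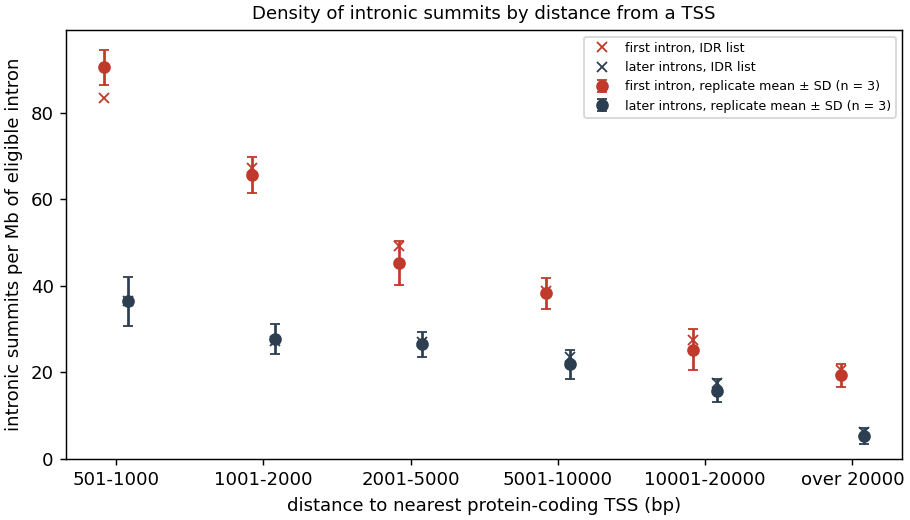
Intronic summits per Mb of eligible intron (y axis) by distance to the nearest protein-coding TSS in bp (x axis), for first and later introns, as replicate mean ± SD (circles with bars, n = 3) and in the reproducible list (crosses). First introns lie above later introns in all 6 bins, and both fall from left to right.

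The strongest member lay in Sin3A (FBgn0022764, 2R 12575240 to 12592917), which encodes a scaffold of histone deacetylase corepressor complexes. Its signal was 9109, and its replicate signals of 3631, 2836 and 2691 ranked 15, 7 and 8 in their lists. The member in Ant2 and sesB (FBgn0025111 and FBgn0003360), 613 bp from a TSS, followed with 4383 and replicate signals of 1642, 1356 and 1360. That in chic (FBgn0000308, 2L 5972115 to 5981018) had a signal of 3076 and ranks of 193, 127 and 125. After the Sin3A member the signal dropped by more than the gap between any later neighbours, so 1 member stood well clear of the rest in every replicate. Each of the 20 strongest members was among the top 500 peaks in all 3 replicate lists, 16 lay in a first intron and 15 lay within 2000 bp of a TSS.

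Among the hosts of the 20 strongest members were genes for regulators of chromatin or transcription. ush, a zinc finger cofactor of GATA factors, had a member with a signal of 2266. upSET had one of 1920, and Trl, which encodes the GAGA factor, one of 1882. The member in Gug had 1480, that in simj, a subunit of the NuRD remodelling complex, 1351, and that in Kdm2, a histone demethylase, 1272. A summit of 1250 lay in an intron shared by HmgD and HmgZ, genes for high mobility group DNA-bending proteins. Kinases and other regulators of proteins were among them too. The member in Lk6, a kinase of the translation factor eIF4E, had a signal of 1649, that in Tlk, the Tousled-like kinase, 1334, and that in for, a cGMP-dependent protein kinase known from foraging behaviour, 1247. hiw, a ubiquitin ligase that restrains synaptic growth, had 2179, and tws had 1836. CG11050 had 2249, CG32772 had 1551, CG12769 had 1329, Reph had 1294, and the summit in CG1677 and Dok, the latter an adaptor of tyrosine kinase signalling, had 1237. In ush the replicate signals were 1174, 538.9 and 581.0, and in CG11050 they were 1248, 446.3 and 565.8. Replicate 1 gave the highest of the 3 values in each case, on a scale of its own.

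Members were shared out unevenly over their host genes. Of 9184 protein-coding genes with eligible intron, 906 held at least 1 member, or 9.86%, and the replicate lists gave 876 ± 72.2 hosts (SD, n = 3), of which 610 were shared by all 3 lists and the reproducible list. Of the hosts 562 had 1 member, 183 had 2 and 161 had 3 or more, and these 161 genes held 708 members. The top host was kirre (FBgn0028369, X 2740384 to 3134532) with 15 members. All 15 had a summit within 100 bp in all 3 whole replicate lists, weak peaks included. CG1677 held 12. hth, a homeodomain cofactor of Hox proteins, shn, a zinc finger protein of the BMP response, and tara, a transcriptional coregulator, held 10 each. Eip75B and pnt, an Ets factor of the EGFR pathway, held 9 each. The 10 tied hosts with 8 were the Wnt and polarity receptor gene fz, ush, the forkhead gene CHES-1-like, mtgo, the Hox gene Antp, Tlk, the teneurin gene Ten-a, sbb, sick and CG43658. Long genes offer more intron, and per Mb of eligible intron these 17 hosts ranged from 33.8 in Ten-a, whose eligible intron measured 236.9 kb, to 531.3 in CHES-1-like with 15.1 kb, and kirre, with the longest at 309.4 kb, had 48.5. The counts were not equally steady. Among the 7477 strongest peaks of replicates 1, 2 and 3, kirre had 19, 9 and 11 intronic summits and mtgo 7, 2 and 6. By the same count tara had 9, 12 and 10 and pnt 9, 9 and 10.

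**Figure D3:**
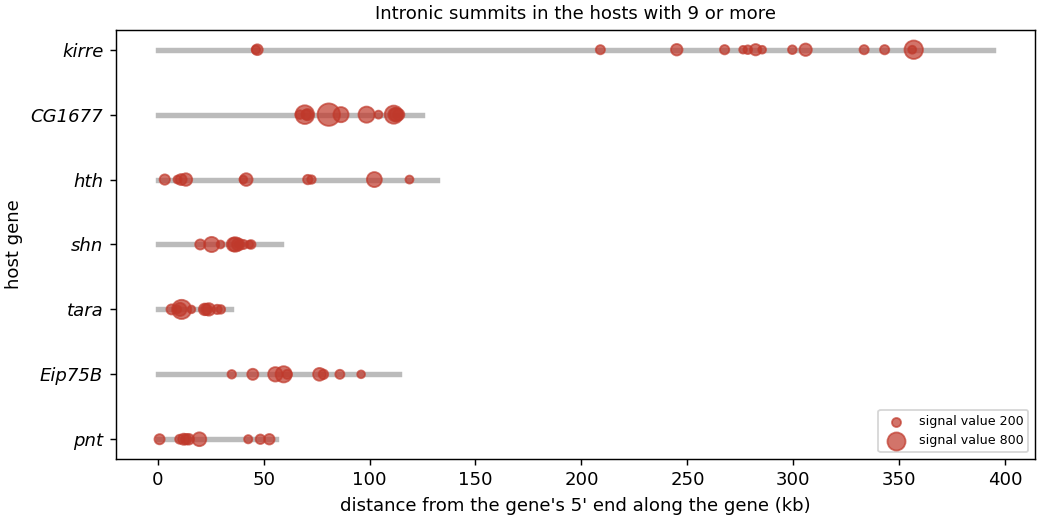
Members along the 7 host genes with 9 or more, drawn from the 5' end of each gene in kb (x axis; grey bar, the gene; circle area, signal value). On the shared kb axis the members of kirre, the longest gene drawn, spread over a long stretch. Those of tara, the shortest gene drawn, spread over a short one.

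Hosts more often had a summit at their own promoter than other genes. Of all genes with eligible intron 48.2% had a promoter summit. The share was 64.5% of the 906 hosts and 46.5% of the 8278 others. In the replicate lists it was 66.4% ± 4.32 of hosts and 45.4% ± 0.715 of others, a difference of 21.1 ± 4.52 percentage points with the same sign in 3 of 3 replicates (SD, n = 3, exact sign-flip permutation p = 0.25, the smallest possible). Hosts have more eligible intron than other genes, so the shares were also set side by side within length classes. With up to 1000 bp of eligible intron, 68.9% of hosts and 50.01% of others had a promoter summit. With 5001 to 20000 bp of eligible intron, the shares were 67.2% and 34.7%, and with more than 50000 bp they were 53.3% and 14.8%. Hosts were above the others in all 5 length classes. Of the 17 hosts with 8 or more members 4 had none, namely kirre, shn, Antp and CG43658. Another summit of the reproducible list lay within 1000 bp of 21.1% of the members and within 5000 bp of 66.8%. A summit lay that close to 6.58% and 27.5% of tiled positions of eligible intron, which are farther from TSSs than the members are, and the part of TSS distance in this was not tested.

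Gene groups differed in how many members their introns held. Density also differed with the amount of eligible intron per gene. It was highest, at 58.8 per Mb, in genes with 1001 to 5000 bp, and lower in genes with up to 1000 bp. Above 5000 bp it fell with each class, to 17.9 per Mb in genes with more than 50000 bp. Each group's members are therefore set beside the number that genes of the same 5 length classes would hold at the density of all genes. Chromatin regulators and corepressors had 31 members in 13 of 59 genes, 3.30 times that number (replicates 3.53 ± 0.0387, SD, n = 3), led by Sin3A, Trl, osa, a subunit of the Brahma remodelling complex, with 1071, and the histone methyltransferase gene trx with 1005. Signalling pathway genes had 94 in 34 of 76 genes, 2.55 times (2.74 ± 0.205), led by fz with 1104, the EGFR inhibitor gene aos with 970.3, the kinase gene Raf with 807.3 and the BMP effector gene Mad with 665.9. Nuclear receptor and ecdysone response genes had 42 in 12 of 22 genes, 2.501 times (2.51 ± 0.222), led by the nuclear receptor genes Hr3 with 1114 and Hr4 with 1072, then Eip75B with 647.4 and E23 with 523.9. In these 3 groups the distance of the replicate mean from 1 was larger than the replicate SD. The same held for the groups with members described below, except homeobox genes and RNA-binding and splicing regulators. The lists were chosen with earlier results known, so these are descriptions with no test.

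Developmental transcription factor groups came closer to the density of all genes. Proneural, bHLH and neuroblast genes had 28 members in 11 of 31 genes, 1.63 times the number for their lengths (replicates 1.85 ± 0.297), led by grh with 962.1, crp with 582.8, jing with 572.7 and sim, the midline regulator, with 564.9. Gap, pair-rule and segment polarity genes had 12 in 7 of 22 genes, 1.49 times (1.27 ± 0.206), led by the Wnt inhibitor gene nkd with 844.5, then wg with 346.6, sog with 327.5 and ptc with 320.1. Homeobox genes had 43 in 16 of 60 genes, 1.32 times (1.10 ± 0.200), the replicate mean being within 1 SD of 1, led by zfh1 with 619.8, hth with 552.9, Antp with 451.1 and Abd-B with 398.7. Cytoskeleton, muscle and junction genes had 64 in 25 of 67 genes, 1.51 times (1.44 ± 0.0777), led by chic, kirre with 837.8, the myoblast fusion gene mbc with 830.3 and the junction gene cno with 758.1. Of these 64 members kirre alone held 15.

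The remaining groups included those with the longest introns and those with the shortest. Ion channel and neurotransmission genes had 12 members in 9 of 67 genes, 0.241 times the number for their lengths (replicates 0.223 ± 0.0166), with the potassium channel genes KCNQ at 688.2 and Irk1 at 586.9, then norpA at 447.6 and Ca-beta at 354.7. Axon guidance and synaptic adhesion genes had 70 in 24 of 90 genes, 0.797 times (0.775 ± 0.0999), led by kirre, the netrin gene NetA with 660.6, its receptor gene fra with 541.4 and beat-IIIc with 515.3. kirre is also in the cytoskeleton group, and its 15 members count in both. RNA-binding and splicing regulators had 33 in 18 of 42 genes, 0.969 times (1.00 ± 0.0648), led by brat with 960.3, shep with 704.0, Rbfox1 with 571.4 and pum with 455.6. Trafficking and metabolism genes, whose introns are short, had 7 in 7 of 109 genes, 1.46 times (1.13 ± 0.0670), led by Rab11 with 546.3, Rab23 with 305.6, Rab9 with 277.7 and the complex I gene ND-39 with 154.8. Cytoplasmic ribosomal protein genes, 95.9% of which had a promoter summit, held none in the 0.0132 Mb of eligible intron of 49 genes, where genes of their lengths would hold 0.397.

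CACTG and CAGTG led the words that were more frequent at the members than in other intron. A search of all 8-base words within 100 bp of the summits on chromosomes 2 and 3 ranked CACTGAGA first, present at 64 of 1240 members, or 5.16%, against 0.656% of tiled windows of eligible intron and 0.810% of promoter summits. On X and 4, which were not used to rank the words, it was at 17 of 339 members, or 5.01%, against 0.795% of tiled windows. Intergenic summits held it at 6.14%. Of the first 30 words 19 contained CACTG or CAGTG, and all 30 were more frequent at the members than in tiled windows on X and 4. The 5-base word itself was within 100 bp of 46.9% of members (replicates 45.3% ± 1.32), 27.9% of tiled windows, 41.6% of promoter summits and 46.8% of intergenic summits. It was chosen after the 8-base words had been seen. Among the 60 words made of the same letters, which share its base composition, it had the highest ratio of members to tiled windows, 1.68. The other 59 had a median of 0.750 and a maximum of 1.27. The 8-base words had been ranked by the same kind of ratio on chromosomes 2 and 3, whose members are included here. The first place of CACTG is therefore a description and no independent test.

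The word lay at the edges of the AT-rich centre. G and C made up 31.3% of bases within 40 bp of the members' summits and 44.2% at 200 to 300 bp, while promoter summits had 36.1% and 42.2%. CACTG occurred 4.89 times per 100 members per 20 bp on the left flank, 40 to 120 bp from the summit, 1.82 times in the central 80 bp, 3.64 times on the right flank and 1.87 times further out. CAGTG, the same word on the other strand, showed the mirror image, with 3.34 on the left, 1.57 in the centre, 4.94 on the right and 1.80 further out. Replicate means on the favoured flanks were 4.50 ± 0.673 and 4.28 ± 0.675 (SD, n = 3). At promoter summits CACTG was at 2.34 on the left, 2.79 in the centre, 3.09 on the right and 2.02 further out. Both flanks there were above the value further out, but the centre was not lower than both flanks. Intergenic summits were like the intronic ones, with 5.36 for CACTG on the left and 5.52 for CAGTG on the right. Both flanks held the word, in either orientation, at 199 members, or 12.6% (replicates 10.4% ± 1.70), against 4.11% of promoter summits and 1.69% of tiled positions. The arrangement of the sequences printed above, CACTG on the left and CAGTG on the right, was at 104 members, or 6.59%, and the opposite arrangement at 56, or 3.55%, against 0.483% and 0.473% of tiled positions. Whether the protein that binds the word is Trem was not tested.

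**Figure D4:**
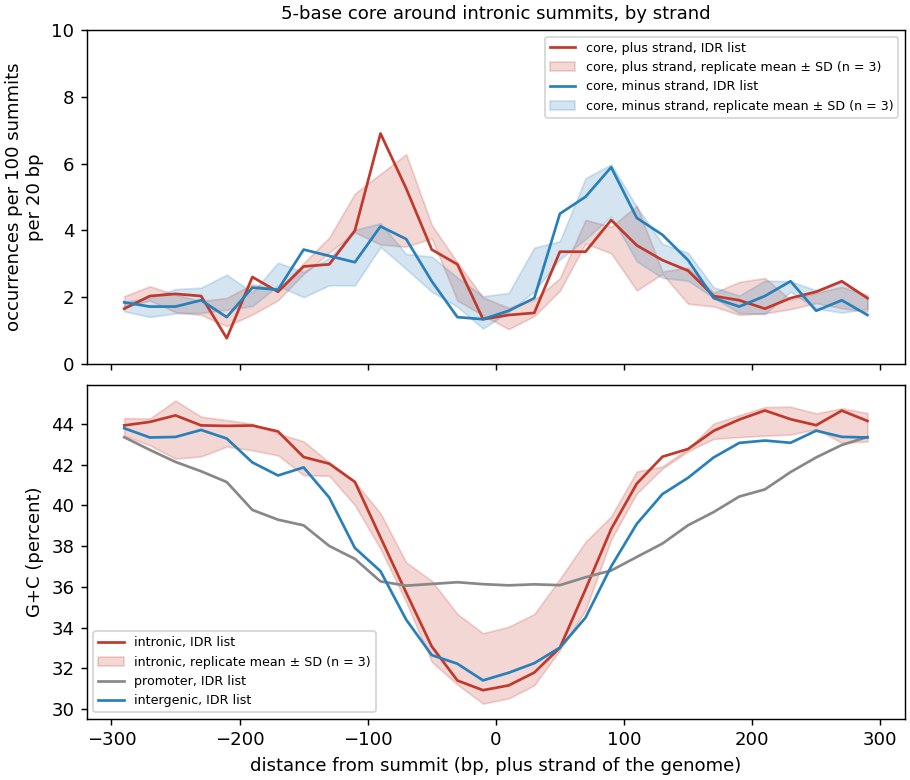
Top, occurrences of the 5-base core per 100 intronic summits in 20 bp bins on each strand; bottom, G and C in percent for intronic, promoter and intergenic summits; x axis, distance from the summit in bp; lines, reproducible list; bands, replicate mean ± SD (n = 3). The plus-strand core peaks left of the summit and the minus-strand core right of it, on the edges of the dip in G and C to about 31%.

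Promoter motifs differed in how often they were found at the members, and DRE, the M1BP motif and Ohler motif 7 were rare there. Both strands of the sequence up to 100 bp from the summit were searched. G and C made up 34.0% of the members' windows and 40.3% of tiled windows, and the part of this gap in the shares below was not tested. DRE (TATCGATA) was at 0.570% of members, 0.392% of tiled windows and 13.8% of promoter summits. The M1BP motif (GGTCACACT) was at 0.253%, 0.0955% and 8.69%, and the core of Ohler motif 7 (CATCNCTA) at 1.01%, 1.11% and 7.01%. These shares rest on 9 members for DRE, 4 for the M1BP motif and 16 for motif 7. The CTCF core (AGNTGGCGC) was at 1.52% of members (replicates 1.52% ± 0.253), 0.485% of tiled windows, 1.32% of promoter summits and 4.47% of intergenic summits. The core of the site of the insulator protein Su(Hw) (GCATACTT) was at 1.65%, 1.02%, 0.746% and 2.497%. CGATA, a word bound by the insulator protein BEAF-32 and part of DRE, was at 20.5% of members, 19.99% of tiled windows and 49.5% of promoter summits. Sites of developmental factors were mixed. The GATA motif (AGATAAG) was at 3.86% of members against 2.53% of tiled windows, and the homeodomain core (TAATTA) at 19.1% against 14.6%. The Zelda motif (CAGGTAG) was at 0.950% against 0.915%, the Twist E-box (CACATG) at 7.98% against 9.44% and the Snail E-box (CAGGTG) at 4.62% against 6.55%. TATAAA was at 39.7% against 23.9%, and TCAGT, part of the initiator that overlaps CACTGA read on the other strand, at 36.6% against 28.7%. Intergenic summits held TATAAA at 40.3%, TCAGT at 39.5%, AGATAAG at 3.95% and TAATTA at 16.9%. Promoter summits held these words at 34.6%, 30.8%, 2.00% and 16.4%.

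**Figure D5:**
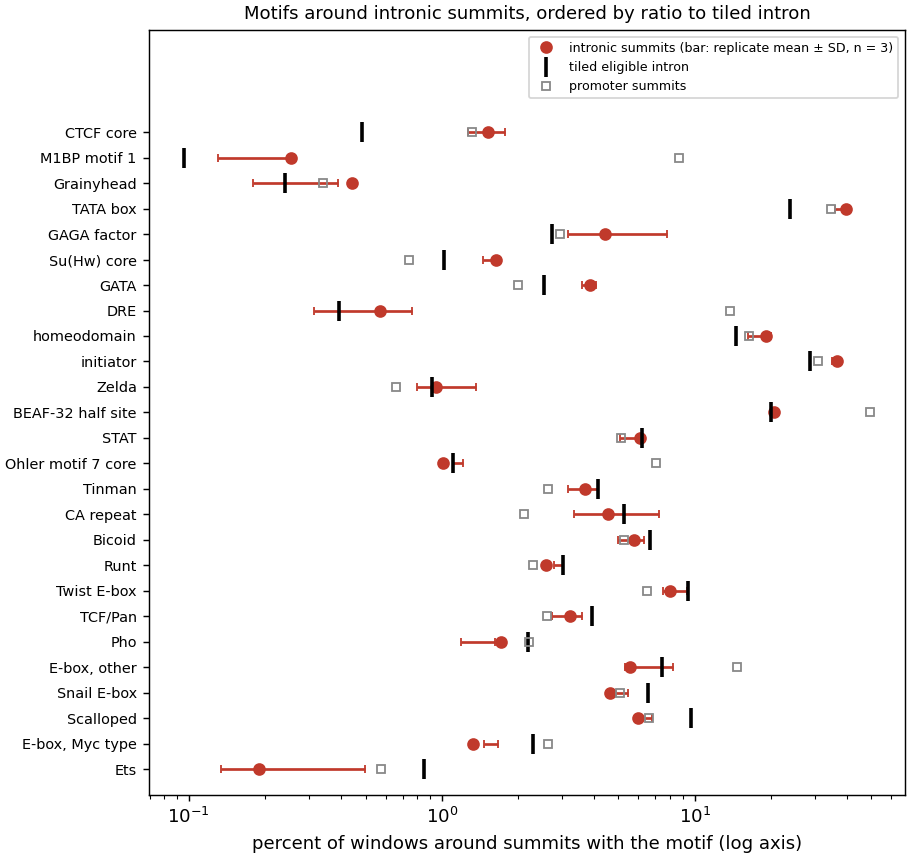
Percent of windows reaching 100 bp to each side with each of 26 motifs (x axis, log scale) at intronic summits (circles, with bars for the replicate mean ± SD, n = 3), in tiled eligible intron (vertical ticks) and at promoter summits (squares). DRE, M1BP motif 1 and Ohler motif 7 have promoter squares far to the right of the intronic circles.

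Of the 26 motifs 9 were more frequent at members than in tiled windows in the reproducible list and in every replicate, and 10 were less frequent in all of them. The GAGA motif (GAGAGAG) varied between replicates, at 4.43% of members with replicates from 2.81% to 6.81%, and it was at 8.12% of members in the weakest of 4 equal classes of the members by signal, against 3.797% in the strongest. GTTGGCAG, chosen after it had been seen in strong peaks, was at 24 members, or 1.52% (replicates 1.60% ± 0.118), against 0.950% of tiled windows and 3.41% of promoter summits. In the strongest of those classes 2.78% held it, and in the weakest 1.27%.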

How the data were processed

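ChIP-seq peak lists for Trem-eGFP in whole embryos, on dm6, were deposited in narrowPeak layout: 1 list of 30000 peaks for each of 3 replicates, called on that library with a control, and 1 list of 7477 peaks that passed the irreproducible discovery rate (IDR) filter, derived from the replicate lists and a pooled list, per the file lists. The deposited signal value per peak is the authors' own, on the scale of its list, and was compared only within a list. Aligner, caller and IDR settings were not given in the sources used here. A pooled list went unused.

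Summits were placed on Ensembl release 115 (BDGP6.54, the coordinates of dm6), taking TSSs from all transcripts of 13968 protein-coding genes and exons from every gene, transposable elements included. Replicate values come from the 7477 strongest peaks of each list. Tiled windows are 246010 windows, of the same length as the summit windows, centred in eligible intron. Words and promoter shares were counted in Python 3.11.15 with numpy 2.4.6, pandas 2.3.3 and scipy 1.17.1, and the code was checked on simulated placements. 8-base words had to be in 20 or more members. Percentile differences and the host difference were tested with exact sign-flip permutation tests over replicates, which cover these 3 samples only. When all 3 differences share a sign, the exact permutation test gives the same result whatever their size or scatter. It therefore does not measure the spread between replicates, which the SD gives. List entries matched 576 symbols, 10 older symbols and 9 patterns, with 7 entries unmatched. The 12 lists cover 858 genes, 16 of them in more than 1 list, and a member with 2 hosts counts for both. Genes named are hosts of the 20 strongest members, the hosts with most members including ties, up to 4 hosts per list with the strongest members, and hosts of the 3 members just inside the distance limit. Sequences were read from the RefSeq genome as the strongest members with each pattern, and those with the word on both flanks were widened to 241 bp after the flanks had been seen. Not all of them were printed, and for DRE a member stronger than those shown was left out. Hosts of printed sequences and of the 3 summits just outside the limit were named as well. Members, lists, words, flank limits and the length classes were chosen with earlier results of these data known. Alternatives were other TSS distances, exon definitions, matching distances, motif windows, the stronger part of the IDR list and leaving out each replicate.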

Additional observations from a re-analysis of the deposited data

How the results depend on the processing

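Of 112 alternative values 69 were held to be unmoved and 43 were not. A count was held to be unmoved within 1.5 times its value, a percentile difference when it kept its sign, and any other value within the replicate SD. No percentile difference changed sign. With a TSS distance of 250 bp the intronic share was 23.9%, the median TSS distance 2472 bp and the share of hosts with a promoter summit 53.1%. At 1000 bp the share was 17.5%, the distance 4077 bp and the first intron share 63.4%. At 2000 bp there were 990 members, a share of 13.2%, at a median distance of 5564 bp, with 57.7% in first introns, 25.05 per Mb, and 535 hosts, of which 74.95% had a promoter summit. These follow in part from the limit itself, since it removes or adds the summits nearest to TSSs and widens or narrows what counts as a promoter. In the stronger 50% of the IDR list there were 651 members, a share of 17.4%, of which 94.5% were in all 3 replicate lists, at a median distance of 2682 bp, with 72.0% in first introns, 13.2 per Mb, and 479 hosts, 47.2% of them with a promoter summit. A shorter list holds fewer promoter summits for any gene. The share of other genes is not given for it, so 47.2% cannot be set beside the shares of the whole list. The difference between intronic and promoter median percentiles was then -6.87, against -16.6. Leaving out a replicate kept only IDR peaks among the strongest of both others, so fewer peaks remained. The members then numbered 863 (without replicate 1) to 1013 (without replicate 2), their share was 17.2% to 19.5%, the median distance 2735 to 2912 bp, the first intron share 68.4% to 69.5%, the density 17.4 to 20.5 per Mb, the hosts 595 to 674, and the share of hosts with a promoter summit 53.3% to 54.4%. For these shorter lists, too, the share of other genes is not given. The difference from intergenic summits was 0.973 without replicate 1, against 2.92. Members in all 3 replicate lists were 55.3% when summits had to lie within 50 bp, 95.2% within 200 bp and 49.6% among the strongest peaks only. With motifs searched within 200 bp of the summit, 15 of the 26 were above tiled windows. Letting summits in exons of transposable elements stay as members, which gave 1582 members, was added after the data had been seen. It moved no value by more than the spread between replicates. Depth, which is unknown, limits how weak a peak could be found.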

Other observations

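By chromosome arm, intronic summits stood at 34.4 per Mb of eligible intron on 2L, 33.4 on 3L, 29.5 on 3R, 30.9 on 2R and 37.0 on X. The order was not steady between lists, since X held 374, 273 and 279 intronic summits in replicates 1, 2 and 3 and had a replicate mean of 34.0 ± 6.23 per Mb (SD, n = 3). The small, largely heterochromatic chromosome 4 had 3 members, or 7.54 per Mb, and 3, 5 and 5 intronic summits in the replicate lists. The 0.939 Mb of eligible intron on Y held none in any list.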
